A study of Homo sapiens with 6 samples.

Results

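The APOBEC3 genes encode cytidine deaminases and stand side by side on human chromosome 22. They were followed here in HEK293, a cell line made from human embryonic kidney, on 3 treatment and 3 control Affymetrix Gene 1.0 ST arrays. Members were the rows of the deposited table whose gene symbols in the array's annotation included APOBEC3A, APOBEC3B, APOBEC3C, APOBEC3D, APOBEC3F, APOBEC3G or APOBEC3H. The rule found 8 of the 33297 transcript clusters, a cluster being the set of probes for 1 transcribed locus. Of these, 7 carried 1 symbol and covered 6 of the 7 genes, with 2 clusters for APOBEC3F. The remaining cluster was shared by APOBEC3A and APOBEC3A_B, so APOBEC3A had no cluster of its own. APOBEC3A_B is the gene form left by a known deletion that joins the 2 neighbouring genes APOBEC3A and APOBEC3B.

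The study asked which mediators accompany an anti-HIV effect of transfecting an empty plasmid. The labels describe the treatment cells as given a Neo vector and the control cells as given a transient vector, whereas the design text sets pCMV9-transfected against untreated cells. What the control cells received is therefore unsettled, and the groups are called treatment and control. No label says whether the replicates were separate cultures, so each p-value reflects the spread among these arrays alone, and that spread may be technical.

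APOBEC3 proteins turn cytosine into uracil in single-stranded DNA. When packaged into HIV particles, several of them, above all APOBEC3G, mutate the viral DNA copy, and the viral protein Vif counters them by steering them to a CUL5 ubiquitin ligase for destruction. Several APOBEC3 genes are induced by interferon in blood cells, whereas cells of the 293 lineage are widely used to express APOBEC3G from plasmids because they make little of their own.

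Of the 7 members, APOBEC3H had an entry among the RefSeq promoter windows used here. Its window is shown because the interferon-stimulated response element, a DNA motif bound by interferon-activated factors, is built from GAAA half-sites. The window covers 250 bases before and 50 after the gene start (GRCh38.p14, chr22:39096994-39097293, plus strand), with each GAAA in capitals:

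APOBEC3H: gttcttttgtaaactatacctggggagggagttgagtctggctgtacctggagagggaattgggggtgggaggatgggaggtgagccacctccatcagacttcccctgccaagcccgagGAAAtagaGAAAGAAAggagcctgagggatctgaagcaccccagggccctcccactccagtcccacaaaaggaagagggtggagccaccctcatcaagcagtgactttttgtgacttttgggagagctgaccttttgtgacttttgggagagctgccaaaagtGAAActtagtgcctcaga

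The window held 4 copies of GAAA and 0 of the reverse complement TTTC, and 86.3% of all 35116 promoter windows held at least 1 copy on either strand. The spaced pair GAAANNGAAA, with TTTCNNTTTC on the other strand, had 0 matches in the APOBEC3H window and was present in 3.57% of all windows. These are letter matches and not measured binding sites.

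No APOBEC3 cluster passed the test across the array. APOBEC3F and APOBEC3D averaged higher in the treatment arrays, by 0.49 to 0.73 on the log2 scale over their 3 clusters. APOBEC3B, APOBEC3C, APOBEC3H and the cluster shared by APOBEC3A and APOBEC3A_B had changes between -0.03 and 0.25. APOBEC3G also averaged higher in treatment, but within the range of background and by a size that hung on the offset. The test was limma's moderated comparison of log2(intensity + 16), treatment minus control, with p-values adjusted by Benjamini-Hochberg over the 33297 clusters and called under 0.05. By that rule 0 of the 8 member clusters passed, against 0.372% of all clusters (124 in number, 119 of them higher in treatment). When data were simulated, this rule called 22% of the clusters changed 2-fold on that offset scale, all of them brighter than APOBEC3G and APOBEC3H. A missed threshold, here and in the lists below, therefore does not show that a gene was unchanged. Intervals given with each gene are 95% intervals of its own change and are not adjusted for the number of clusters. Because probes of different clusters bind with different strength, a cluster's intensity was compared between groups and not with that of another single gene. Its place against the olfactory receptor clusters below carries that limit and is a rough guide.

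The arrays had median intensities between 77.2 and 84.2, and treatment replicate 3 stood farthest from the others, with a mean Pearson's r of 0.963 with the other 5 arrays. As a benchmark for background, 381 olfactory receptor clusters, of genes not known to work in kidney cells, had a 95th percentile of mean intensity of 54.8. The clusters of APOBEC3A and APOBEC3A_B, APOBEC3B, APOBEC3C, APOBEC3D and APOBEC3F lay above it, and those of APOBEC3G and APOBEC3H lay below it. All 9 HEK293 and kidney lineage markers lay above that level, among them VIM, KRT8, KRT18, CDH2 and NEFM.

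**Figure D1:**
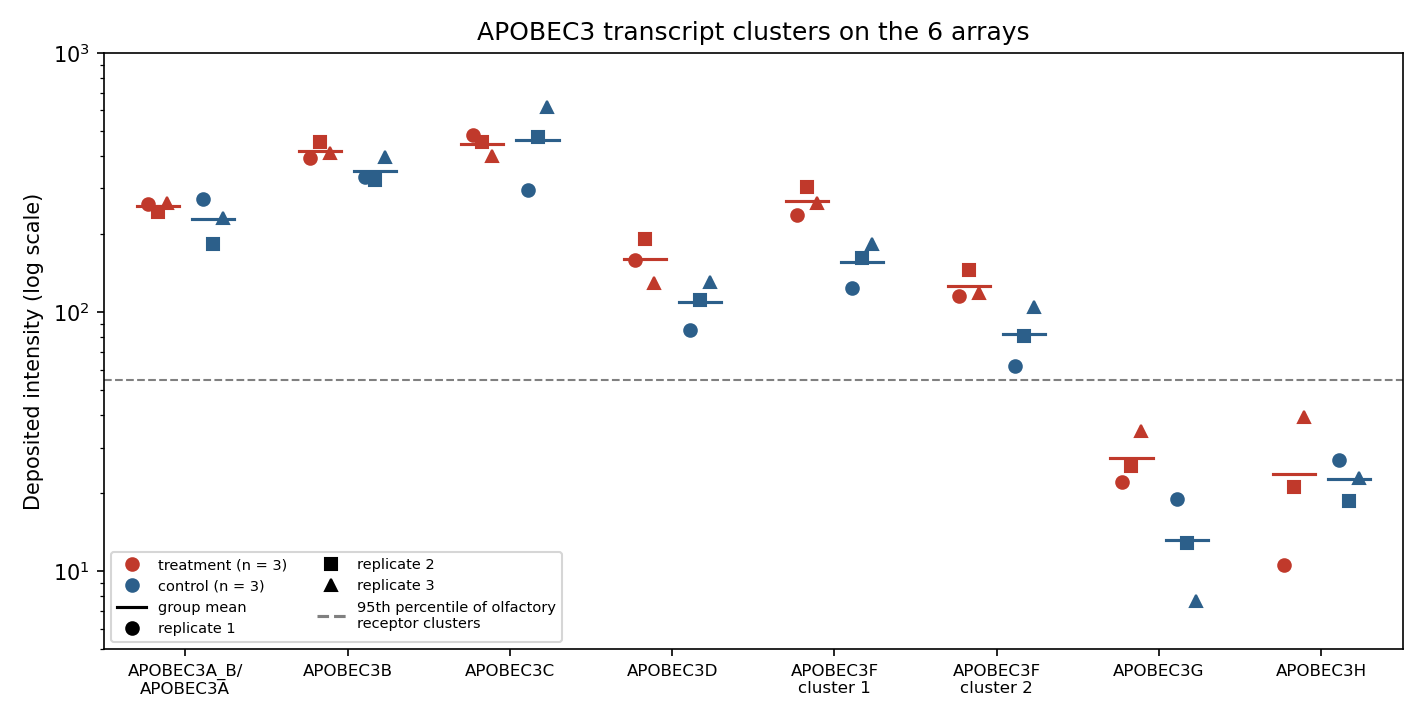
Deposited intensity (log axis) of the 8 APOBEC3 clusters on each array, treatment in red and control in blue, with replicate numbers as symbols, group means as bars (n = 3 each) and the 95th percentile of olfactory receptor clusters, 54.8, as a dashed line. Treatment and control points do not overlap for both APOBEC3F clusters and for APOBEC3G, whose points all lie under the dashed line.

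Among the members known to restrict HIV that lacks Vif, APOBEC3F, a deaminase with an inactive and an active domain, had the lowest p of the family. Its first cluster gave 237, 303 and 264 in treatment replicates 1, 2 and 3, and 124, 162 and 184 in control replicates 1, 2 and 3. Every treatment array was above every control array. The means were 268 ± 33.4 in treatment and 156 ± 30.4 in control arrays (SD, n = 3 each), and the log2 change was 0.73 ± 0.212 (SE), with an interval from 0.27 to 1.18. It did not pass over all clusters (limma, adjusted p = 0.444, unadjusted p = 0.00426).

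The second APOBEC3F cluster, annotated to another RefSeq transcript of the gene, gave 115, 146 and 118 in treatment replicates 1, 2 and 3, and 61.8, 80.9 and 105 in control replicates 1, 2 and 3. The groups again did not overlap, with control replicate 3 the nearest to the treatment arrays. Its log2 change was 0.55 ± 0.219 (SE), with an interval from 0.08 to 1.02 (limma, adjusted p = 0.669). The 2 clusters ranked the 6 arrays in the same order (Spearman's rho of 1.0, Pearson's r of 0.974 on the log2 scale). They read the same RNA samples and the same gene and may share probes, so they are not separate evidence.

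APOBEC3D, another double-domain member that can be packaged into HIV particles, gave 159, 191 and 129 in treatment replicates 1, 2 and 3, and 84.9, 112 and 131 in control replicates 1, 2 and 3. The groups overlapped, since treatment replicate 3 lay just under control replicate 3. The change was 0.49 ± 0.222 on the log2 scale (SE), with an interval from 0.01 to 0.97 (limma, adjusted p = 0.680). Over the arrays left out in turn it ran from 0.34 without control replicate 1 to 0.62 without treatment replicate 3 (adjusted p = 0.827 and 0.445), and without treatment replicate 2 it was 0.36.

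APOBEC3G, the member best known for blocking HIV without Vif, was dim. It gave 22.1, 25.5 and 34.6 in treatment replicates 1, 2 and 3, and 19.0, 12.9 and 7.64 in control replicates 1, 2 and 3. The treatment arrays were all above the control arrays, yet both groups lay in the range of olfactory receptor clusters, 67.2% of which had a lower mean. Its log2 change was 0.58 ± 0.218 (SE), with an interval from 0.11 to 1.05 (limma, adjusted p = 0.640). With other offsets it was 1.13 with no offset (plain log2) and 0.29 when 50 was added. The olfactory receptor clusters had a median change of 0.12, against 0.01 over all clusters, and 12.6% of them had every treatment array above every control array. The part of that shift of dim clusters in the APOBEC3G value was not tested.

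APOBEC3H, a single-domain deaminase whose human variants differ in stability, was dim as well. It gave 10.6, 21.1 and 39.4 in treatment replicates 1, 2 and 3, and 26.8, 18.6 and 22.9 in control replicates 1, 2 and 3. The treatment arrays held both the lowest and the highest of the 6 values. The log2 change was -0.03 ± 0.256 (SE), with an interval from -0.58 to 0.53.

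Of the members less tied to HIV restriction, APOBEC3B, a nuclear deaminase often raised in tumour cells, gave 395, 454 and 412 in treatment replicates 1, 2 and 3, and 333, 324 and 396 in control replicates 1, 2 and 3. Control replicate 3 lay just above treatment replicate 1, and the other control arrays lay below all treatment arrays. The means were 420 ± 30.5 in treatment and 351 ± 39.4 in control arrays (SD, n = 3 each). The change was 0.25 ± 0.197 on the log2 scale (SE; limma, adjusted p = 0.791), with an interval from -0.17 to 0.68, whose upper end is 1.60-fold on the offset scale.

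APOBEC3C, a single-domain member, gave 482, 454 and 402 in treatment replicates 1, 2 and 3, and 295, 475 and 617 in control replicates 1, 2 and 3. The control arrays spanned the treatment arrays on both sides, with SDs of 40.8 in treatment and 161 in control arrays. The log2 change was 0.01 ± 0.252 (SE), with an interval from -0.54 to 0.55, whose upper end is 1.46-fold. Its value turned on single control arrays, from -0.28 without control replicate 1 to 0.24 without control replicate 3.

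The cluster shared by APOBEC3A, a single-domain deaminase of myeloid cells and keratinocytes, and APOBEC3A_B gave 260, 243 and 263 in treatment replicates 1, 2 and 3, and 274, 183 and 231 in control replicates 1, 2 and 3. Control replicate 1 was the highest of the 6 arrays, and the groups overlapped. The change was 0.16 ± 0.208 on the log2 scale (SE; limma, adjusted p = 0.882), with an interval from -0.28 to 0.61. APOBEC3A is close in sequence to part of APOBEC3B, so probes of these clusters may not separate the genes. Of 7 myeloid markers, 5 (LYZ, ITGAM, CSF1R, FCGR3A and FCER1G) lay below the olfactory receptor benchmark. Of 3 measured keratinocyte markers (KRT5, KRT14 and KRT10), 0 lay below it, and their summed intensity was 681 to 838 in treatment and 633 to 829 in control arrays.

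Taking the members by array, the median deviation from the control mean over the 8 clusters was 0.295, 0.444 and 0.350 on the log2 scale in treatment replicates 1, 2 and 3, and -0.178, 0.002 and 0.201 in control replicates 1, 2 and 3. In each treatment array 7 of the 8 clusters lay above their control mean, and the same held in control replicate 3. Control replicate 1 was the lowest of the control arrays for APOBEC3C, APOBEC3D and both APOBEC3F clusters, and control replicate 3 was the highest for these and for APOBEC3B.

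Without adjustment, 4 of the 8 clusters (both of APOBEC3F, APOBEC3D and APOBEC3G) had p under 0.05, all higher in treatment, against 5.01% of all clusters that were higher by that rule and 7.3% in either direction. Every treatment array lay above every control array in 3 of the 8, against 7.47% of all clusters. The 8 include 2 clusters of 1 gene and members of similar sequence, so they are not 8 separate observations. That count of 4 fell to 2 (the first APOBEC3F cluster and APOBEC3G) without control replicate 1, without control replicate 2 or without treatment replicate 2, and to 2 with an intensity trend in the variance prior. It was 3 without any 1 of the other arrays. Without control replicate 1 the unadjusted p was 0.0224 for the first APOBEC3F cluster, 0.112 for the second and 0.169 for APOBEC3D. APOBEC3D also missed 0.05 with a plain log2 (0.0759), with median centring (0.0710) and with the replicate number as a block (0.0723), and APOBEC3G missed it without control replicate 3 and without treatment replicate 3 (0.0527 in the last case).

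**Figure D2:**
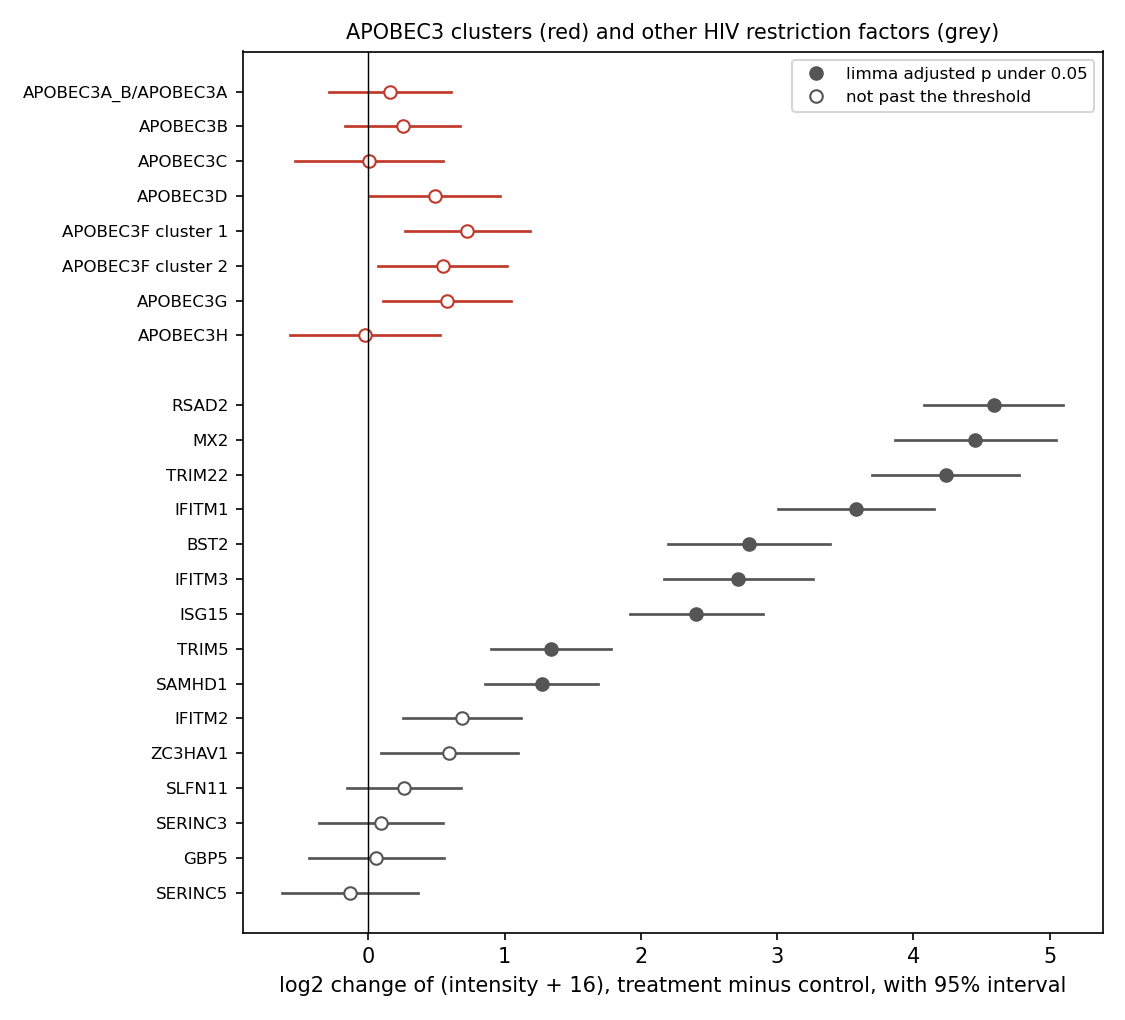
Log2 change of (intensity + 16), treatment minus control, with 95% intervals, for the 8 APOBEC3 clusters (red) and 15 other HIV restriction factors (grey), where filled points passed limma's adjusted p threshold of 0.05. All APOBEC3 points are open and lie between -0.03 and 0.73, and the filled points run from 1.27 for SAMHD1 to 4.59 for RSAD2.

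Other genes that restrict HIV or join its restriction in human cells are given beside the family from the same arrays. Their list was written with earlier results of these data known, so its count and median are a description and no test. Of the 15 genes, 9 rose and 0 fell, while 6 missed the threshold. Over all clusters 0.372% passed. The median log2 change of the 15 genes was 1.34, against 0.01 over all clusters. The HIV capsid sensor TRIM5 averaged 1102 ± 174 in treatment and 422 ± 31.5 in control arrays (SD, n = 3 each), a change of 1.34 ± 0.204 (SE; limma, adjusted p = 0.00602). SAMHD1, which lowers the dNTP supply of reverse transcription, averaged 2182 ± 118 in treatment and 894 ± 52.9 in control arrays, a change of 1.27 ± 0.192 (limma, adjusted p = 0.00549). The calls of TRIM5 and SAMHD1 ended with an offset of 1 or none at all, without control replicate 1 and without treatment replicate 2. Tetherin (BST2), which holds new virus on the cell, changed by 2.79 ± 0.277, a call that ended with a plain log2. No test compared these changes with those of the APOBEC3 genes.

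The listed genes around APOBEC3 in function gave few low p-values. Of 2 measured relatives outside the family, the mRNA editor APOBEC1 gave 0.08 ± 0.205 and APOBEC4, of unsettled function, -0.09 ± 0.216 (log2, SE). Both lay below the olfactory receptor benchmark. Of 15 other nucleoside and RNA deaminases, 0 passed limma, and at an unadjusted p under 0.05 there was 1 gene. It was the double-stranded RNA editor ADAR, with 2036, 1974 and 1668 in treatment replicates 1, 2 and 3, and 1019, 1270 and 1391 in control replicates 1, 2 and 3. Its groups did not overlap, and the change was 0.63 ± 0.207 (SE; limma, adjusted p = 0.563).

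Among 6 measured genes of the CUL5 ligase that Vif uses, 0 passed limma, also 0 at an unadjusted p under 0.05, with a median change of -0.07 and a range from -0.39 to 0.16. Of 10 uracil excision and base repair genes, which process the uracil that deaminases leave in DNA, 0 passed, and 2 had an unadjusted p under 0.05, both lower in treatment. These were the endonuclease APEX2 (-0.47 ± 0.209, adjusted p = 0.680) and the ligase LIG3 (-0.42 ± 0.194, adjusted p = 0.683), with SE on the log2 scale. Over all clusters, 7.3% had an unadjusted p under 0.05 in either direction, and 5.01% were higher in treatment by that rule. Of 10 RNA granule proteins, 0 passed limma, and the exonuclease XRN1 had an unadjusted p under 0.05 (0.66 ± 0.208, adjusted p = 0.528).

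Of the regulators, 0 of 15 genes reported to act on APOBEC3B (NF-kB, protein kinase C and the cell cycle complex DREAM) passed limma, 0 had an unadjusted p under 0.05, and their median change was -0.13. Of 7 measured genes of the interferon receptors and the factor complex behind them, 0 passed and 1 had an unadjusted p under 0.05. That gene was IRF9, the DNA-binding subunit of the complex, with 397, 589 and 678 in treatment replicates 1, 2 and 3, and 270, 235 and 276 in control replicates 1, 2 and 3. Its groups did not overlap, and the change was 1.02 ± 0.227 (SE; limma, adjusted p = 0.136), which passed when treatment replicate 1 was left out.

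**Figure D3:**
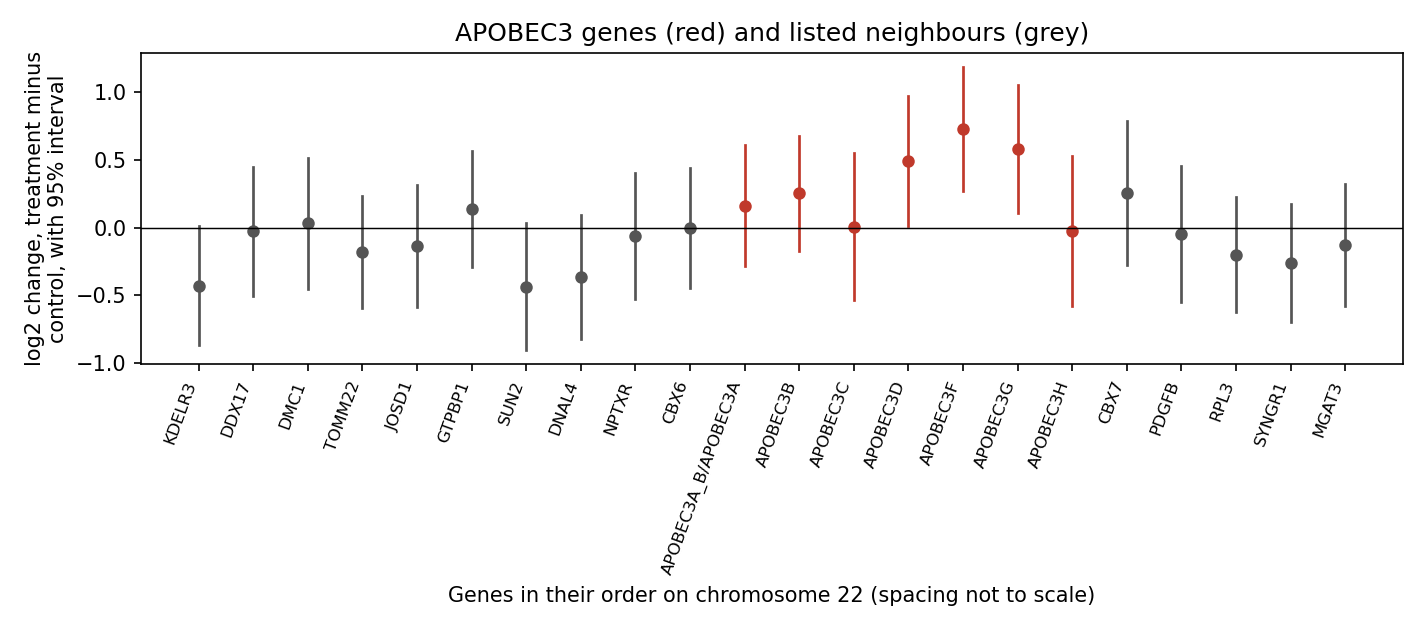
Log2 change of (intensity + 16), treatment minus control, with 95% intervals, for the APOBEC3 genes (red, first cluster of APOBEC3F, shared cluster for APOBEC3A) and 15 measured neighbours (grey) in their order on chromosome 22. The neighbours lie between -0.44 and 0.26, with intervals that all include 0, and the points of APOBEC3D, APOBEC3F and APOBEC3G are the highest shown.

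Of 15 measured neighbours of the APOBEC3 genes on chromosome 22, 0 passed limma, also 0 at an unadjusted p under 0.05, with a median of -0.13, and 3 lay above 0 and 12 below. In the RefSeq gene table APOBEC3A, APOBEC3B, APOBEC3C, APOBEC3D, APOBEC3F, APOBEC3G and APOBEC3H follow each other in this order. Among listed genes, the nearest on either side are the Polycomb genes CBX6 (-0.005 ± 0.207) and CBX7 (0.26 ± 0.247), in log2 units with SE. CBX7 was dim, with a mean below the olfactory receptor benchmark.

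Genes whose values followed a member most closely over the 6 arrays were sought, for members with a cluster of their own above the benchmark, among 13475 genes with a mean intensity over 50. For the first APOBEC3F cluster they were MT1JP, a metallothionein pseudogene (Pearson's r of 0.997), CSF1, the macrophage growth factor (0.995), and CLEC4F (0.988). For APOBEC3D they were TMEM50A (0.989), MYD88, the adaptor of Toll-like receptors (0.987), and PAX7 (0.986). For APOBEC3B they were NFKBIA, the inhibitor of NF-kB (0.965), the immediate early factor EGR1 (0.964) and B3GNT4 (0.953), and for APOBEC3C they were MYORG (0.994), LAMA1 (0.990) and ATN1 (0.988). EGR1 also stood second for the second APOBEC3F cluster (0.986), between MT1M (0.991) and GPBAR1 (0.980). Of the 13475 genes, 57 had an r over 0.95 with the first APOBEC3F cluster, 19 with the second, 31 with APOBEC3D, 58 with APOBEC3C and 4 with APOBEC3B. All points share the same 6 arrays, and over so few arrays an r this high can arise without any link between genes. How many genes would reach it in that way was not tested, and these values are a description.

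APOBEC3 genes are active in leukocytes, so leukocyte markers are given beside the family. The summed intensity of 6 T cell markers was 284 to 393 in treatment and 253 to 271 in control arrays, and PTPRC, CD3D, CD3E and CD2 lay below the olfactory receptor benchmark. CD8A, with 117, 104 and 183 in treatment and 120, 104 and 84.2 in control replicates 1, 2 and 3, carried much of the sum. Of the 6 markers 0 passed limma, and their log2 changes ran from -0.28 for PTPRC to 0.48 for CD3G. The summed intensity of 7 myeloid markers was 531 to 733 in treatment and 380 to 389 in control arrays. Without CD68, the lysosomal protein that was the only one of the 7 to pass limma (1.37 ± 0.246, adjusted p = 0.0242), the myeloid sums were 254 to 383 in treatment and 248 to 300 in control arrays. Of 3 measured B cell markers the sums were 243 to 318 in treatment and 224 to 306 in control arrays, with MS4A1 below the benchmark. The part of these markers' sources in the APOBEC3 values was not tested. The samples were given as HEK293, a cell line. In bulk RNA of such a culture, more RNA per cell and more cells with a marker cannot be told apart.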

How the data were processed

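RNA of HEK293 cells was read on 6 Affymetrix Gene 1.0 ST arrays with biotin label, per the labels' protocols. Per the submitters' processing notes the software was Partek. How background was corrected, arrays normalized and probes summarised is not given in the sources used here. The deposited values are linear intensities, as their range from 3.73e-05 to 9794 shows. Columns were matched to samples by accession and groups taken from the titles. The platform annotation of 2016 named 1 gene for 19460 clusters and several for 1754, and left 12083 unnamed. A listed gene with several clusters was represented by the brightest.

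An offset of 16 was added before log2, and each cluster was tested with limma 3.58.1 in R 4.3.3 (lmFit and eBayes, two-sided, no block). The offset makes fold changes of dim clusters smaller. The number of arrays limits the precision. The pipeline was tested on simulated data, with 50 clusters changed at each size. Changes were made on the log2(intensity + 16) scale in clusters with a mean intensity over 50. Clusters as dim as those of APOBEC3G and APOBEC3H were therefore not covered. Where the change was 1.5-fold, 2% were called, and at 2-fold the share was 22%. It was 90% at 4-fold and 100% at 8-fold. The largest member change, 1.66-fold on the offset scale (first APOBEC3F cluster), lay between 1.5-fold and 2-fold. A missed threshold therefore does not show that a change of that size was absent. "Rose" and "fell" mean an adjusted p under 0.05. The members and lists were chosen with earlier results of these data known. Named by rule were all member clusters and, from each list, passing genes and up to 4 with the lowest p, of which the text gives those a result turns on. For each member with a cluster of its own above background, the 3 genes most like it were taken by Pearson's r. Alternatives were other offsets, a plain log2, a replicate block, quantile normalization, median centring, filters on dim clusters, other variance priors, 1 cluster per gene, a stricter threshold and leaving out each array.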

Additional observations from a re-analysis of the deposited data

How the results depend on the processing

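The 8 APOBEC3 clusters passed the threshold in 0 of the 16 to 18 alternatives run for each. The stricter threshold, which is among them, could not add a pass. For the first APOBEC3F cluster the log2 change ran from 0.58 to 0.84 and the adjusted p from 0.251 to 0.933. APOBEC3A with APOBEC3A_B (0.02 to 0.29), APOBEC3B (0.20 to 0.34), APOBEC3D (0.34 to 0.62), the second APOBEC3F cluster (0.39 to 0.71) and APOBEC3G (0.29 to 1.13) kept their direction in all alternatives run. The replicate block, the variance priors, the filters on dim clusters, 1 cluster per gene and the stricter threshold do not alter log2 changes. Only the offsets, the normalizations and the arrays left out could have turned a direction. APOBEC3C turned to -0.051 with median centring, and over the arrays left out it ran from -0.28 to 0.24. APOBEC3H turned to 0.0011 with an offset of 50, and over the arrays left out it ran from -0.30 to 0.23. APOBEC1 turned to -0.032 with quantile normalization. Over the arrays left out APOBEC1 ran from -0.010 to 0.17 and APOBEC4 from -0.23 to 0.074. The cause was not tested.

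The count of 124 clusters over the array was 40 without an offset (plain log2) and 58 with one of 1, and from 69 (without control replicate 1) to 129 over the arrays left out, with 82 without treatment replicate 2. Of the 15 other restriction factors, 5 passed with a plain log2 and from 7 to 9 over the arrays left out. In the interferon receptor list 1 gene, IRF9, passed with clusters at or above the median mean intensity, with an intensity trend and with 1 cluster per gene, and from 0 to 1 over the arrays left out (1 without treatment replicate 1). Replicate numbers gave no sign of pairing: the deviations of same-numbered arrays had correlations of -0.166, 0.084 and -0.356. Those of differently numbered arrays ran from -0.187 (treatment 1 with control 2) to 0.363 (treatment 1 with control 3). Deviations from a mean of 3 arrays depend on each other, so these values cannot exclude a pairing or a batch. With the replicate number as a block 105 clusters passed, none of them an APOBEC3 cluster (first APOBEC3F cluster, adjusted p = 0.863). Filters on dim clusters removed APOBEC3G, and the stricter one APOBEC3H too. In APOBEC3G and APOBEC3H, signal within the range of olfactory receptor clusters limits what any change can show.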
